A study of Homo sapiens with 49 samples.

Results

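The transcriptome of SHEP-21N cells was compared between 6 h of MYCN shutdown and the start of shutdown, 0 h. SHEP-21N is a human neuroblastoma line, derived from SH-EP cells, with a TET-off switch on MYCN: doxycycline, given here at 0.2 µg/ml in the medium, turns the gene off. The 6 h group has 3 libraries and the 0 h group has 2 libraries without doxycycline treatment, all from cells kept in tetracycline-free serum. Genes were included where their mean unnormalised FPKM (fragment counts scaled to transcript length and library size) over the SHEP-21N libraries was at least 1, which left 11867 of 23621 genes. The series lists 49 samples, and the 20 SHEP-21N libraries of 7 times shared 1 estimate of the spread here. Both groups come from 1 engineered line. No group that received doxycycline without the MYCN switch was analysed here, so doxycycline itself and loss of MYCN cannot be told apart. No label says that the libraries came from separate cultures, and p-values then measure the spread between these libraries, which may be technical.

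MYCN is a transcription factor of the MYC family that is amplified in a share of neuroblastomas. MYC proteins pair with MAX and bind E-box DNA, whose best known form is CACGTG, and their classical targets serve ribosome production, nucleotide synthesis and growth. Proteins of the MXD group, MNT and MGA compete for MAX, and MLX binds partners of its own such as MLXIP.

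Unless marked as unnormalised, levels are FPKM on the authors' spike-in scale, set with ERCC control RNA. Log2 fold changes are 6 h minus 0 h on the log2(FPKM + 1) scale, on which low genes show smaller changes than their true ones. A gene is said to have risen or fallen where the adjusted p (limma, Benjamini-Hochberg over all 11867 genes) was under 0.05. In bulk RNA, fewer cells of a type and less RNA per cell cannot be told apart.

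The cells carried the mesenchymal markers of neuroblastoma and lacked most of the adrenergic ones. All 7 mesenchymal markers passed the filter, with vimentin (VIM) at 448, 460 and 368 FPKM at 6 h, against 471 and 584 FPKM at 0 h, and the summed level of the 7 was 575 to 675 FPKM at 6 h and 704 to 844 FPKM at 0 h. Of 7 adrenergic markers 2 passed, HAND2 and ISL1, while PHOX2A, TH, DBH and GATA3 were among those under the filter. None of these 9 tested markers rose or fell. Schwann and blood cell markers were all under the filter. Of 9 epithelial markers 3 passed (KRT8, KRT18 and CLDN4), and none changed.

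The level of GC-rich against GC-poor genes differed between libraries in a way that moved with time. For each library the log2 level of every gene was taken relative to its mean over the SHEP-21N libraries, and the median of the GC-poorest quartile of genes was subtracted from that of the GC-richest. By this measure the 3 libraries at 6 h stood at -0.13, -0.04 and -0.50, and the 2 libraries at 0 h at 0.23 and 0.54. The library numbered 2 was the most extreme of each group, and the groups did not overlap. Genes that rose had a median transcript GC content of 39.6% and a median length of 6407 bases, genes that fell 57.6% and 3379 bases, and all tested genes with a matched transcript 48.7% and 3280 bases. The measure was taken from the same values as the calls, so a technical difference and a change in expression of GC-rich genes cannot be told apart. The part of base composition and length in the results was not tested. A fit on values corrected for both, added after the data were seen, is given with the groups below as "the length and GC correction". The correction takes these trends out of each library without regard to its time, so it can also remove real change. The index sequences used at 6 h occur in no other SHEP-21N group, whereas those of 0 h were also used at 8 h. No label names a sequencing run.

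**Figure D1:**
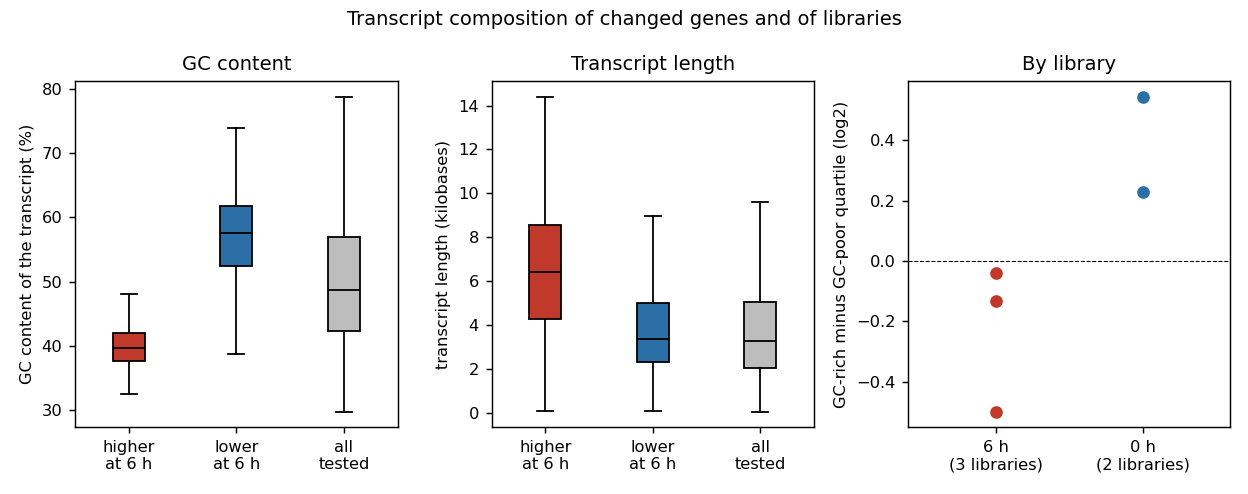
Transcript GC content in percent (left) and transcript length in kilobases (middle) of genes higher at 6 h, genes lower at 6 h and all tested genes, as boxes from the lower to the upper quartile with the median as a line and whiskers to the last value within 1.5 box lengths, and the GC-rich minus GC-poor difference of each library (right, log2). The genes that were higher sit at low GC content, and all 3 libraries at 6 h lie below 0 while both libraries at 0 h lie above it.

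MYCN, the targeted gene, stood at 14.8, 15.0 and 11.6 FPKM at 6 h, against 723 and 855 FPKM at 0 h. The log2 fold change was -5.74 ± 0.22 (SE; limma, adjusted p = 3.06e-12). One row of the table holds MYCN, so transcripts of the transgene and of the cells' own gene are not separated. Over the first hours MYCN averaged 789 FPKM at 0 h, 159 FPKM at 2 h, 32.0 FPKM at 4 h, 13.8 FPKM at 6 h and 14.7 FPKM at 8 h. The fall was therefore nearly complete before 6 h, and the level at 8 h was close to that at 6 h. MYCNOS, the transcript antisense to MYCN, was at 0.366, 0.392 and 0.157 FPKM at 6 h, against 12.0 and 16.0 FPKM at 0 h (-3.51 ± 0.17, adjusted p = 2.27e-10). The preparation kit marked strand but whether counting used it is not stated, so reads of MYCN and MYCNOS may not be fully separated.

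At 6 h, 376 genes (3.17% of those tested) were higher and 895 (7.54%) were lower than at 0 h, together 10.7%. The falls were also larger, since 115 genes fell by more than 1 on the log2 scale and 8 rose by more than 1. The middle of all genes lay below 0, with a median log2 fold change of -0.14 and quartiles of -0.39 and 0.12. Library medians averaged 3.65 ± 0.03 at 6 h (SD, n = 3) and 3.81 ± 0.09 at 0 h (SD, n = 2) on the log2 scale, and the difference had the smallest p that 3 against 2 libraries allow (exact permutation test, two-sided, p = 0.1). All 376 rises and all 895 falls also passed in the same direction on unnormalised values, where 3186 genes (26.8%) were higher and 3538 (29.8%) lower. There 47.4% of the changed genes were higher, against 29.6% on the spike-in scale and 52.9% after centring each library on its median.

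Changes depended on how strongly a gene was expressed. In the quartile of genes with the lowest mean levels, 162 genes rose and 230 fell, with a median log2 fold change of 0.00. In the quartile with the highest levels, 34.2 FPKM and above, 13 rose and 131 fell, and the median was -0.24. The 2 libraries at 0 h weighed heavily in these counts. A fit without either of them, here and below, rests on 1 library at 0 h, so calls can be lost for lack of precision alone. In the fit without the 0 h library numbered 2, some lost genes kept their log2 fold change (HOTAIRM1, 0.99 against 1.02). Others had a smaller one (SEL1L, 0.46 against 0.61). Without the 0 h library numbered 2 the counts were 8 higher and 36 lower, without the other 0 h library 66 and 251, and without the 6 h library numbered 2 they were 26 and 129.

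**Figure D2:**
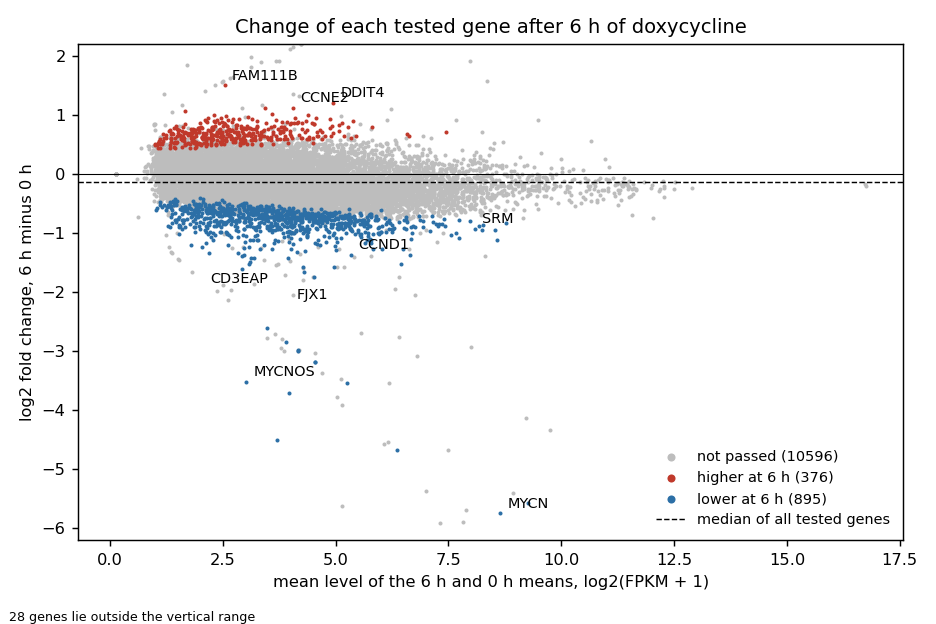
Log2 fold change of each tested gene, 6 h minus 0 h (vertical), against its mean level in log2(FPKM + 1) (horizontal). Red points are the 376 genes that were higher at 6 h and blue points the 895 that were lower. MYCN lies near the bottom at -5.74, and the dashed median of all genes lies at -0.14.

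The 12 largest rises were genes of varied roles. FAM111B, which encodes a protease linked to DNA replication, was at 7.14, 5.45 and 10.4 FPKM at 6 h, against 2.28 and 1.68 FPKM at 0 h (log2 fold change 1.51 ± 0.20, adjusted p = 0.000471). CCNE2, cyclin E2, which activates CDK2 at the start of S phase, was at 21.6, 20.3 and 23.3 FPKM at 6 h, against 8.90 and 10.0 FPKM at 0 h (1.12 ± 0.16, adjusted p = 0.00079). SESN3, a sestrin that restrains mTORC1, was at 3.47, 2.51 and 3.88 FPKM at 6 h, against 1.06 and 0.995 FPKM at 0 h (1.07 ± 0.16, adjusted p = 0.000824). In each of these 3 genes every library at 6 h was higher than both at 0 h.

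DDIT4, a further inhibitor of mTORC1, was at 45.4, 43.5 and 36.9 FPKM at 6 h, against 15.0 and 20.4 FPKM at 0 h (1.21 ± 0.23, adjusted p = 0.00615). EPGN, epigen, a ligand of the EGF receptor, was at 13.8, 11.6 and 16.4 FPKM at 6 h, against 5.80 and 5.84 FPKM at 0 h (1.12 ± 0.17, adjusted p = 0.00126). DNAJB4, a co-chaperone of HSP70, was at 29.5, 29.1 and 32.5 FPKM at 6 h, against 14.3 and 16.1 FPKM at 0 h (0.95 ± 0.16, adjusted p = 0.00248). The libraries of the groups did not overlap in these genes, as in 64.4% of all tested genes. FAM111B, CCNE2, SESN3, EPGN and DNAJB4 were the only 5 rises that passed in each of the 5 fits that left out 1 library at 6 h or 0 h. In all 5 the 6 h library numbered 2, the GC-poorest, was the highest. They passed with the length and GC correction, but with smaller log2 fold changes. These were 1.20 for FAM111B, 0.81 for CCNE2, 0.64 for SESN3, 0.77 for EPGN and 0.63 for DNAJB4. Leaving out the 0 h library numbered 1 ended the call of DDIT4.

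The other large rises were HOTAIRM1, a non-coding RNA (1.02), the kinase TAOK1 (1.00), the cohesin subunit STAG2 (1.00), the surface protein CD109 (0.98), the guanine nucleotide exchange factor DOCK11 (0.96) and the replication fork protein BOD1L1 (0.95), all as log2 fold changes. STAG2 was at 23.6, 20.9 and 37.4 FPKM at 6 h, against 13.7 and 11.8 FPKM at 0 h. TAOK1 was at 4.92, 4.03 and 7.92 FPKM at 6 h, against 2.67 and 1.80 FPKM at 0 h. In TAOK1, STAG2, CD109, DOCK11 and BOD1L1 the 6 h library numbered 2, the GC-poorest of the 5, was the highest, and STAG2 and DOCK11 did not pass with the length and GC correction. None of these 5 genes nor HOTAIRM1 passed without the 0 h library numbered 2. HOTAIRM1 is an antisense RNA, and its reads may not be fully separated from those of overlapping genes.

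**Figure D3:**
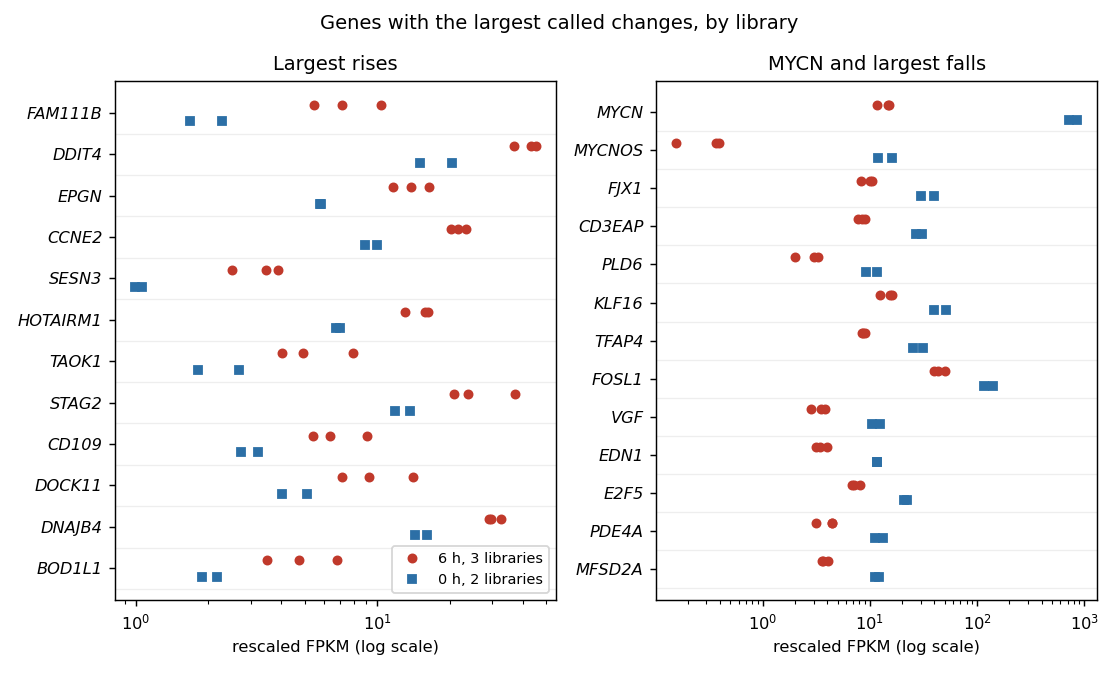
Rescaled FPKM on a log axis, by library, of the 12 largest rises (left) and of MYCN with the 12 largest falls (right). Red circles are the 3 libraries at 6 h and blue squares the 2 at 0 h. In every row the 6 h circles lie wholly on 1 side of the 0 h squares, and MYCN shows the widest gap.

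Leaving out small and uncharacterised RNAs and symbols that mark antisense RNAs, some of which fell by more, the largest falls after MYCN and MYCNOS were the following. FJX1, a secreted protein related to Drosophila four-jointed, was at 10.5, 9.97 and 8.29 FPKM at 6 h, against 30.0 and 39.3 FPKM at 0 h (-1.74 ± 0.22, adjusted p = 0.000342). CD3EAP, a subunit of RNA polymerase I, was at 9.05, 8.43 and 7.83 FPKM at 6 h, against 26.9 and 30.8 FPKM at 0 h (-1.66 ± 0.17, adjusted p = 3.07e-05). PLD6, a phospholipase of the mitochondrial surface, was at 3.29, 3.04 and 2.00 FPKM at 6 h, against 9.23 and 11.7 FPKM at 0 h (-1.61 ± 0.23, adjusted p = 0.000768). In these 3 genes the libraries at 6 h were all below those at 0 h, and all 3 passed in each fit that left out 1 library.

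TFAP4, a helix-loop-helix factor known as a direct MYC target, was at 8.69, 8.96 and 8.55 FPKM at 6 h, against 25.1 and 31.3 FPKM at 0 h (-1.58 ± 0.19, adjusted p = 0.000155). EDN1, the vasoactive peptide endothelin 1, was at 3.45, 3.96 and 3.15 FPKM at 6 h, against 11.6 and 11.7 FPKM at 0 h (-1.49 ± 0.16, adjusted p = 3.3e-05). E2F5, an E2F factor that works with the pocket proteins, was at 8.09, 6.90 and 7.11 FPKM at 6 h, against 20.7 and 22.1 FPKM at 0 h (-1.42 ± 0.17, adjusted p = 0.00016). The spread within each group was small beside the gap between groups in all 3. The neuropeptide precursor VGF (-1.52), the cAMP phosphodiesterase PDE4A (-1.42) and the lysophospholipid transporter MFSD2A (-1.42) also fell, and TFAP4, EDN1, E2F5, VGF, PDE4A and MFSD2A passed in each fit that left out 1 library. The zinc finger factor KLF16 (-1.58) and FOSL1 (-1.53) fell too, but neither was called once the 0 h library numbered 2 was left out.

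Of 19 tested members of the MYC and MAX network 2 rose and 6 fell, MYCN itself and TFAP4 among the falls. Over all tested genes 3.17% rose and 7.54% fell. The median log2 fold change of the list was -0.43 against -0.14 over all tested genes. MNT, a MAX partner that represses transcription, was at 3.54, 3.11 and 2.56 FPKM at 6 h, against 8.46 and 10.1 FPKM at 0 h (-1.34 ± 0.20, adjusted p = 0.00117). MAX itself was at 26.1, 27.2 and 24.6 FPKM at 6 h, against 40.1 and 48.5 FPKM at 0 h (-0.74). MXI1 (-0.70), a further MAX partner, and MLXIP (-0.68), the partner of MLX, fell as well. The family member MYC was at 5.70, 5.43 and 5.30 FPKM at 6 h, against 2.34 and 2.68 FPKM at 0 h (0.88 ± 0.18, adjusted p = 0.00938). On this per-length scale MYC at 6 h stayed below the MYCN that was left. TXNIP, a glucose-regulated target of MLX complexes, rose by 0.64. After the length and GC correction 1 member was higher and 4 were lower, and without the 0 h library numbered 2 none was higher and 2 were lower, MYCN and TFAP4, so that no MAX partner stayed called (MNT, adjusted p = 0.0537).

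The hexamer CACGTG was sought in RefSeq promoter windows (assembly GRCh38.p14, 250 bases before to 50 after each gene's start). It reads the same on both strands, and 7.43% of all 27305 windows held it. A window could be matched to 77.5% of the tested genes and to fewer than 80% of the genes that fell, so a comparison of shares between risen and fallen genes is void. Of the 40 ribosome assembly factors described below 34 had a window, and 13 of the 34 (38.2%) held the hexamer, against 10.5% of the tested genes with a window, which is a description and not a site. This was the highest share among the lists. The hexamer was in 6 of 16 windows (37.5%) of the RNA polymerase III list, where 5 of 22 genes fell. It was in 7 of 21 windows (33.3%) of the lysosome and autophagy list, where 1 of 30 genes fell. It was in 1 of 18 windows (5.56%) of the RNA polymerase I list, where 6 of 20 fell. The RNA polymerase III and lysosome lists had windows for fewer than 80% of their tested genes, so their shares may not hold for the whole lists. The 250 bases before the start of 4 genes that fell are shown, 5′ to 3′ on the strand of the gene, to let the hexamer be seen in its setting, with CACGTG in capitals. These 4 genes were picked because they hold it. Many other genes that fell, among them CAD, PFAS, POLR1A, HK2 and EDN1, have none in their windows. They lie at chr11:35618210-35618459 (FJX1, plus strand, hexamer starting 85 bases before the gene's start), chr17:2401061-2401310 (MNT, minus strand, 193 bases before), chr12:26125038-26125287 (BHLHE41, minus strand, 48 bases before) and chr1:11060019-11060268 (SRM, minus strand, 199 bases before).
FJX1: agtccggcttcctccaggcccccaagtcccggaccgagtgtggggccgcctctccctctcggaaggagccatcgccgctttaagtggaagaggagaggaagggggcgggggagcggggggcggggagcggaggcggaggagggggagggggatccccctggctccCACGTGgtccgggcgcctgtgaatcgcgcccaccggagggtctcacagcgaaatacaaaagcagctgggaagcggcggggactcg
MNT: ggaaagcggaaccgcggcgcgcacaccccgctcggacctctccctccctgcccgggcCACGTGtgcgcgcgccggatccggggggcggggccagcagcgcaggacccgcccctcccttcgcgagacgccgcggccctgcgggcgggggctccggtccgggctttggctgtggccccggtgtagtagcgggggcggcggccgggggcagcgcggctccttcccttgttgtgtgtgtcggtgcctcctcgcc
BHLHE41: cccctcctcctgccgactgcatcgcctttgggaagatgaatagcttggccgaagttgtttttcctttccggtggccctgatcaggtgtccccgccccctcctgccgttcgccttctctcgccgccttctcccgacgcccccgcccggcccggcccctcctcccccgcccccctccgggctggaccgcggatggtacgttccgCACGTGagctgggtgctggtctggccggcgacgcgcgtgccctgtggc
SRM: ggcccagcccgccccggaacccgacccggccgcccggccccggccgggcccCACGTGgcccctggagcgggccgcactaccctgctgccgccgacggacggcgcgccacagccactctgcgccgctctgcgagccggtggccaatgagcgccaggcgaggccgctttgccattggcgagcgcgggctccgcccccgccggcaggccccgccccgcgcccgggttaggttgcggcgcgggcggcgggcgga

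Of 40 tested ribosome assembly factors none rose and 12 fell, while 3.17% of all tested genes rose and 7.54% fell. The list median was -0.47 against -0.14 over all genes. MYBBP1A, a nucleolar factor of early ribosomal RNA processing, was at 39.1, 39.1 and 32.7 FPKM at 6 h, against 81.1 and 101 FPKM at 0 h (-1.27 ± 0.24, adjusted p = 0.00462). RRP12, which exports ribosomal subunits, was at 36.0, 35.7 and 28.6 FPKM at 6 h, against 62.4 and 78.3 FPKM at 0 h (-1.05 ± 0.23, adjusted p = 0.0118). RRS1 fell by 1.00. RRP1 (-0.99), PPAN (-0.92), RRP9 (-0.90), RRP1B (-0.87), NOC4L (-0.79), BYSL (-0.78), NOP2 (-0.77), NAT10 (-0.68) and POLR1B (-0.66) were the other members that fell. POLR1B, a subunit of RNA polymerase I, is counted in the RNA polymerase I list below as well. 2 abundant nucleolar proteins of the list did not pass the test. Nucleolin (NCL) was at 520, 500 and 520 FPKM at 6 h, against 570 and 629 FPKM at 0 h (-0.22, adjusted p = 0.503), and nucleophosmin (NPM1) had a log2 fold change of 0.26 (adjusted p = 0.427). The counts of falls were 9 after the length and GC correction and 0 without the 0 h library numbered 2.

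RNA polymerase I and its initiation factors had 6 of 20 tested members lower and none higher, against 7.54% and 3.17% of all tested genes. POLR1A, the largest subunit, was at 14.9, 13.7 and 12.1 FPKM at 6 h, against 22.9 and 28.9 FPKM at 0 h (-0.88 ± 0.20, adjusted p = 0.013). TAF1C (-0.76), part of the promoter selectivity factor, POLR1C (-0.74), a subunit shared with RNA polymerase III, POLR1E (-0.69) and POLR1B fell beside CD3EAP. RNA polymerase III, which makes transfer RNA and 5S RNA, had 5 of 22 members lower and none higher. POLR3D was at 30.7, 30.8 and 26.9 FPKM at 6 h, against 51.5 and 65.0 FPKM at 0 h (-0.95 ± 0.23, adjusted p = 0.0177), and POLR3E (-0.81), the initiation factor BRF1 (-0.73) and POLR3A (-0.58) were among those that fell by less. With the length and GC correction the counts were 4 and 2 members lower, and without the 0 h library numbered 2 they were 1 and 0.

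No member passed the test in several lists of abundant housekeeping genes. None of 34 cytosolic ribosomal proteins, 20 aminoacyl-tRNA synthetases, 28 splicing factors, 24 cytosolic chaperones and 28 subunits of oxidative phosphorylation rose or fell. While 10.7% of all genes did, in the quartile with the highest levels only 0.438% rose and 4.42% fell. In the simulation described below, log2 changes of 0.5 were found in 11.9% of cases, so smaller shifts would seldom be called. The medians of these lists lay between -0.26 and -0.09. The ribosomal proteins had the lowest of these medians, with 32 of 34 members below 0, which is close to the median of -0.27 of the RNA polymerase I list. On unnormalised values 1 of the ribosomal proteins was higher and 11 were lower, of the synthetases 6 and 9, of the splicing factors 9 and 11, of the chaperones 6 and 8, and of the oxidative phosphorylation subunits 4 and 2. Of 27 translation factors 1 fell, EEF2K (-0.58), the kinase that inhibits elongation factor eEF2. Among 32 enzymes of nucleotide, polyamine and one-carbon metabolism 4 fell and none rose. CAD, which starts pyrimidine synthesis, was at 39.0, 39.1 and 31.1 FPKM at 6 h, against 60.8 and 75.4 FPKM at 0 h (-0.88 ± 0.22, adjusted p = 0.022). PFAS, an enzyme of purine synthesis (-0.93), SRM, spermidine synthase (-0.92), and DHODH, of pyrimidine synthesis (-0.88), were the others. ODC1, ornithine decarboxylase and a classical MYC target, was at 447, 425 and 395 FPKM at 6 h, against 439 and 550 FPKM at 0 h (-0.22, adjusted p = 0.56), and the groups overlapped. Only 1 of the 32 enzymes was lower with the length and GC correction, and none without the 0 h library numbered 2.

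Immediate early genes and the feedback genes of the ERK pathway had 15 of 24 tested members lower, against 7.54% of all tested genes. None rose, all 24 had a negative log2 fold change, and the median was -0.71 against -0.14 over all genes. FOSL1, the AP-1 subunit FRA1, was at 42.8, 49.8 and 39.5 FPKM at 6 h, against 117 and 141 FPKM at 0 h (-1.53 ± 0.24, adjusted p = 0.00126). EGR1, a zinc finger factor induced by ERK, was at 1.57, 1.56 and 1.19 FPKM at 6 h, against 4.27 and 5.22 FPKM at 0 h (-1.23 ± 0.17, adjusted p = 0.000618). DUSP1, a phosphatase that switches off MAP kinases, was at 14.7, 15.4 and 13.1 FPKM at 6 h, against 29.3 and 35.9 FPKM at 0 h (-1.12 ± 0.20, adjusted p = 0.00356). The groups did not overlap in any of the 3.

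Transcription factors of this list that fell were JUN (-0.98), FOSL2 (-0.75), NR4A1 (-0.66), KLF6 (-0.70), KLF4 (-0.56) and the ETS factors ETV4 (-1.11) and ETV5 (-0.87), along with the early response protein IER2 (-0.72). The inhibitors of ERK signalling among them were DUSP5 (-0.91), DUSP4 (-0.83), SPRY2 (-0.85) and SPRED2 (-0.74). With the length and GC correction 11 of the 24 were lower, and on unnormalised values 19. Without the 0 h library numbered 2 only 1 was lower on the spike-in scale, EGR1, but 18 were on unnormalised values.

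Secreted growth factors and cytokines fell more often than they rose, with 8 of 23 tested members lower and 1 higher, EPGN, and a median of -0.45. Over all tested genes 7.54% fell and 3.17% rose, and the median was -0.14. NOG, noggin, which traps bone morphogenetic proteins, was at 1.33, 0.956 and 1.01 FPKM at 6 h, against 3.91 and 3.75 FPKM at 0 h (-1.21 ± 0.15, adjusted p = 0.000342). CYR61 was at 141, 144 and 122 FPKM at 6 h, against 263 and 314 FPKM at 0 h (-1.08, adjusted p = 0.00938). Both CYR61 and its relative CTGF (-1.11) are matricellular proteins and known targets of YAP. LIF, a cytokine of the interleukin 6 family, fell by 1.00. VEGFA (-0.94), the angiogenic factor, and TGFB2 (-0.52) fell as well, beside EDN1 and FJX1. With the length and GC correction 10 members were lower and 1 higher, and without the 0 h library numbered 2 the counts were 3 and 1.

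Cell cycle genes moved in both directions, and their counts are read against the 10.7% of all tested genes that changed. Of 18 G1 cyclins and kinases 1 rose, CCNE2, and 2 fell, CCND1 and E2F5. CCND1, cyclin D1, which partners CDK4 and CDK6, was at 22.3, 22.2 and 20.4 FPKM at 6 h, against 53.4 and 61.2 FPKM at 0 h (-1.36 ± 0.19, adjusted p = 0.000685). CDK4, a known MYC target, was at 277, 265 and 227 FPKM at 6 h, against 298 and 378 FPKM at 0 h (-0.39, adjusted p = 0.293). The counts of the G1 list were the same without the 0 h library numbered 2. Of 32 DNA replication genes 2 rose, FAM111B and MCM10 (0.53), an initiation factor of replication, and none fell. None of 17 replication-dependent histone genes passed, with a median of 0.19, and their transcripts lack the poly(A) tail by which RNA was selected. Of 29 mitosis and spindle genes 3 fell. UBE2C, the ubiquitin-conjugating enzyme of the anaphase-promoting complex, was at 253, 253 and 214 FPKM at 6 h, against 459 and 583 FPKM at 0 h (-1.11 ± 0.25, adjusted p = 0.0126), and the kinase AURKB (-0.91) and the centromeric histone CENPA (-0.72) fell as well. After the length and GC correction 2 G1 genes were higher and 2 lower, 1 replication gene was higher and 4 mitosis genes were lower, and MCM10 was no longer called (adjusted p = 0.203).

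Of 27 tested genes described as repressed by MYC 3 rose, DDIT4, SESN3 and CCNG2 (0.80), and 3 fell, KLF2, GADD45B and IRS2, where 3.17% of all tested genes rose and 7.54% fell. The list median was -0.04, against -0.14 over all genes. KLF2, a zinc finger factor, was at 3.51, 3.46 and 2.56 FPKM at 6 h, against 8.14 and 11.9 FPKM at 0 h (-1.39 ± 0.19, adjusted p = 0.000594). CDKN1A, the CDK inhibitor p21, was at 44.8, 44.3 and 36.8 FPKM at 6 h, against 49.1 and 63.2 FPKM at 0 h (-0.41, adjusted p = 0.272). Among 24 p53 targets 1 rose, MDM2 (0.64), the ubiquitin ligase of p53, and 2 fell, the nuclease AEN (-0.97) and the kinase PLK3 (-0.90). CCNG2 and MDM2 did not pass with the length and GC correction.

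Stress and secretory pathway genes were mixed, where 3.17% of all tested genes rose and 7.54% fell. Of 22 genes of the integrated stress response 2 rose, DDIT4 and the cystine transporter SLC7A11 (0.75), and 4 fell. SLC7A5, a large neutral amino acid transporter, was at 133, 131 and 104 FPKM at 6 h, against 225 and 276 FPKM at 0 h (-1.03 ± 0.24, adjusted p = 0.0153), and the amino acid carriers SLC1A5 (-0.99) and SLC7A1 (-0.82) and VEGFA fell with it. ATF4, the transcription factor at the centre of that response, was at 150, 157 and 135 FPKM at 6 h, against 166 and 192 FPKM at 0 h (-0.28, adjusted p = 0.435). Of 20 genes of the endoplasmic reticulum list 1 rose, SEL1L (0.61), and 3 fell, the transcription factor XBP1 (-1.17), the ubiquitin ligase SYVN1 (-0.75) and the chaperone partner SDF2L1 (-0.83). XBP1 was at 35.2, 33.7 and 29.7 FPKM at 6 h, against 66.4 and 85.2 FPKM at 0 h. Of these genes SLC1A5, SEL1L, SYVN1 and SDF2L1 did not pass with the length and GC correction.

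Of 23 glycolysis genes 3 fell and none rose, while 7.54% of all tested genes fell, with HK2, hexokinase 2, at 9.18, 9.06 and 8.82 FPKM at 6 h, against 22.5 and 25.8 FPKM at 0 h (-1.32 ± 0.19, adjusted p = 0.00079). The neuronal enolase ENO2 (-0.89) and the lactate exporter SLC16A3 (-0.61) were the others, and only HK2 passed without the 0 h library numbered 2. Of 28 genes of sterol and fatty acid synthesis 2 fell, FASN (-0.89), fatty acid synthase, and DHCR7 (-0.83), the last enzyme of cholesterol synthesis, and neither passed with the length and GC correction. Of 30 lysosome and autophagy genes 1 fell, the calcium channel MCOLN1 (-0.66). Of 15 interferon response genes 2 fell, BST2 (-0.90) and IFITM1 (-0.82). SLC16A3, MCOLN1, BST2 and IFITM1 were not called after the length and GC correction either.

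Among lists of identity and regulation, 4 of 27 mesenchymal genes fell and none rose. The counts of this paragraph stand beside 3.17% of all tested genes that rose and 7.54% that fell. ACTA2, smooth muscle actin, was at 12.0, 10.7 and 9.05 FPKM at 6 h, against 24.6 and 30.6 FPKM at 0 h (-1.30 ± 0.26, adjusted p = 0.00715). The actin-binding protein CNN1 (-0.79) and the collagen COL5A1 (-0.76) fell as well. Of 7 adrenergic genes that passed the filter SLC18A2, a vesicular monoamine transporter, rose (0.43) and GATA2 fell (-0.68). Of 26 factors of RNA polymerase II elongation AFF4, a scaffold of the super elongation complex, rose (0.72) and ELL fell (-0.62). Of 13 circadian clock genes NR1D2 rose (0.71), and BHLHE41 (-1.01), PER1 (-1.06), NR1D1 (-0.63) and CRY1 (-0.59) fell. BHLHE41, a repressor that binds E-boxes, was at 1.01, 0.910 and 0.811 FPKM at 6 h, against 2.67 and 3.03 FPKM at 0 h (adjusted p = 0.000824). The length and GC correction ended the calls of COL5A1, CNN1, GATA2, SLC18A2, AFF4, ELL, NR1D1 and NR1D2. Leaving out the 0 h library numbered 2 left 0 members called in the mitosis, p53, endoplasmic reticulum, sterol, lysosome, interferon, mesenchymal, adrenergic and elongation lists. By the same fit 1 DNA replication gene, FAM111B, and 1 stress response gene were higher, 1 clock gene was lower, and of the genes described as repressed by MYC 2 were higher and 1 was lower.

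**Figure D4:**
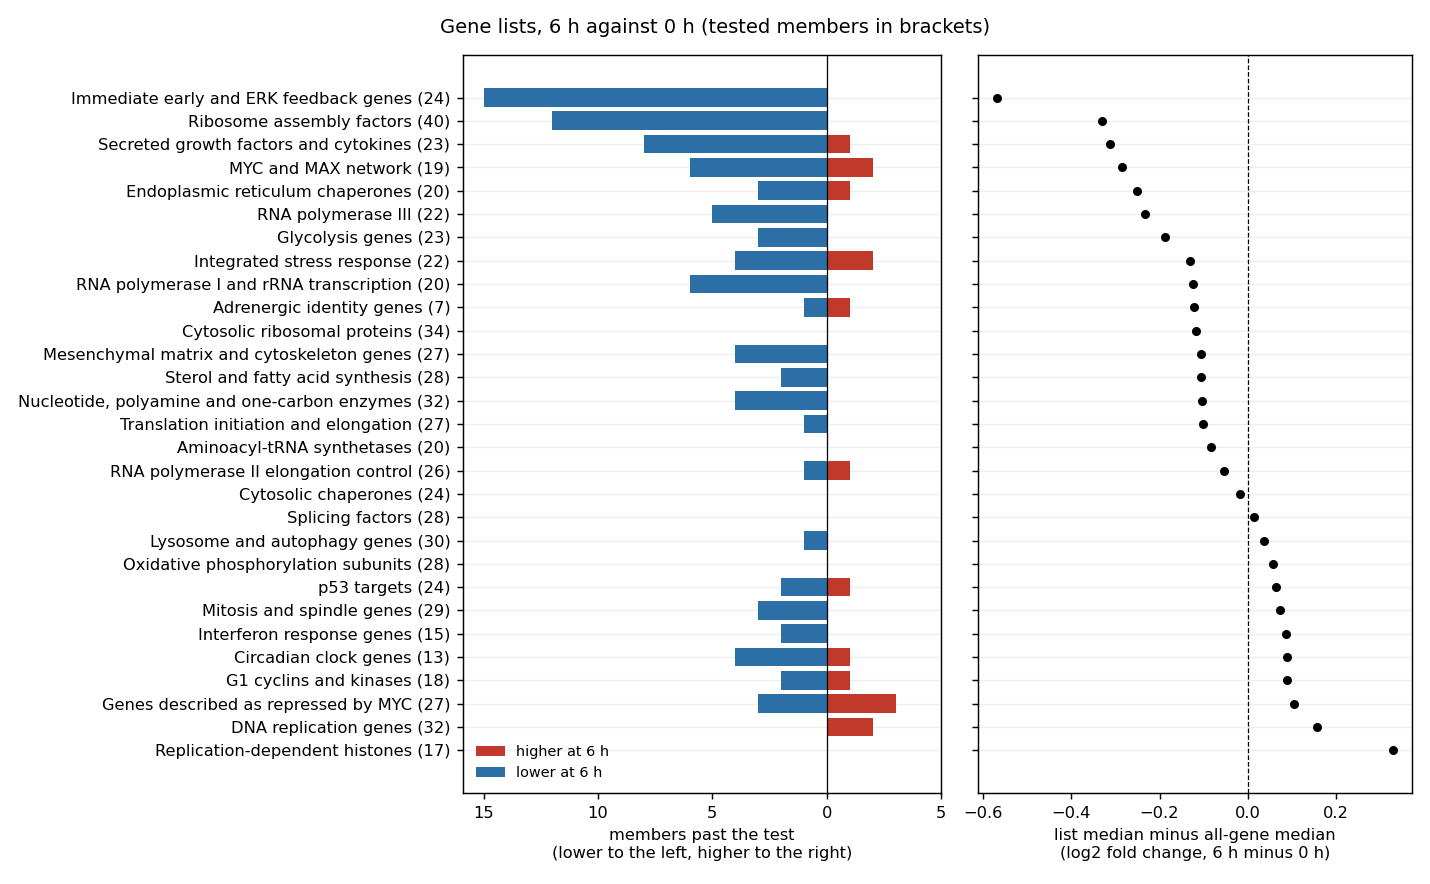
Number of tested members of each list that were lower (blue, to the left) or higher (red, to the right) at 6 h (left panel), and the list median minus the median of all tested genes on the log2 scale (right panel). The immediate early and ERK feedback list lies at the top with 15 members lower, and the histone list at the bottom.

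The place of 6 h in the time course was read from the neighbouring times, which do not use the 0 h libraries. No gene passed the test between 6 h and 4 h or between 8 h and 6 h (limma, Benjamini-Hochberg, 0% of genes called in both), with 918 and 356 genes at an unadjusted p under 0.05. This does not show that levels were equal. MYCN averaged 32.0 FPKM at 4 h and 13.8 FPKM at 6 h and did not pass (-1.14, limma, adjusted p = 0.0705). On unnormalised values 625 genes were higher and 1224 lower at 6 h than at 4 h, and 297 were higher and 165 lower at 8 h than at 6 h. Against the same 0 h libraries 1 gene was higher and 9 were lower at 4 h, and 465 were higher and 454 lower at 8 h.

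Single genes took different courses. EDN1 averaged 11.6 FPKM at 0 h, 5.23 FPKM at 2 h, 4.31 FPKM at 4 h, 3.52 FPKM at 6 h and 3.92 FPKM at 8 h, so most of its difference was already there at 2 h. CCND1 averaged 57.3 FPKM at 0 h, 55.1 FPKM at 2 h, 39.9 FPKM at 4 h, 21.6 FPKM at 6 h and 24.2 FPKM at 8 h, with little difference at 2 h. CCNE2 averaged 9.45 FPKM at 0 h, 9.76 FPKM at 2 h, 13.0 FPKM at 4 h, 21.7 FPKM at 6 h and 19.4 FPKM at 8 h. Of these 3 genes EDN1 alone had moved far by 2 h. EPGN averaged 5.82 FPKM at 0 h, 8.45 FPKM at 2 h, 11.5 FPKM at 4 h, 14.0 FPKM at 6 h and 20.4 FPKM at 8 h, and its mean was higher at each later time up to 8 h. FOSL1 averaged 129 FPKM at 0 h, 134 FPKM at 2 h, 84.9 FPKM at 4 h, 44.1 FPKM at 6 h and 57.7 FPKM at 8 h, with its lowest mean of these 5 times at 6 h. At 16 h and 24 h MYCN averaged 12.0 and 14.1 FPKM. EDN1 averaged 11.9 and 4.00 FPKM at those times, so its mean at 16 h was near that at 0 h. The means at 16 h and 24 h were 41.5 and 15.3 FPKM for CCND1 and 81.6 and 27.8 FPKM for FOSL1. They were 12.5 and 10.6 FPKM for CCNE2 and 20.1 and 24.0 FPKM for EPGN. The falls and rises at 6 h were therefore not all kept at later times. The differences in timing between genes were not tested.

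**Figure D5:**
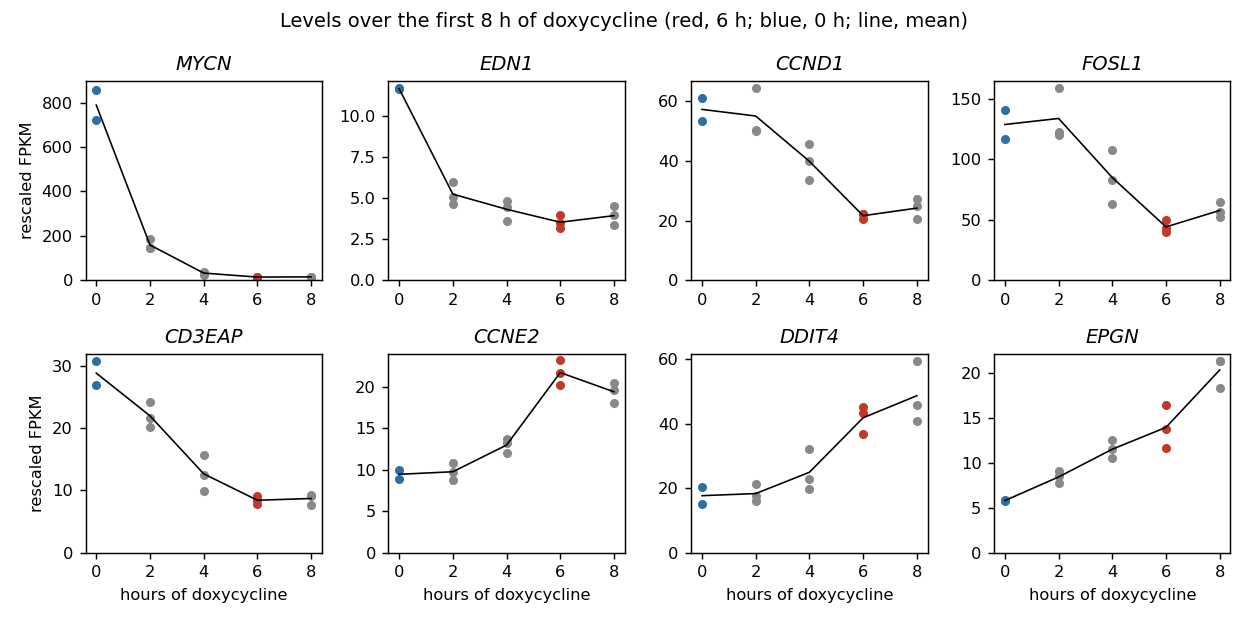
Rescaled FPKM of 8 genes (vertical, linear axes from 0) against hours of doxycycline (horizontal). Points are libraries, blue at 0 h, red at 6 h and grey at other times, and the line joins the means. MYCN and EDN1 are already low at 2 h, whereas CCND1, FOSL1 and CCNE2 differ little from 0 h until 4 h.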

How the data were processed

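Per the labels' protocols, RNA came from counted cells, ERCC control RNA entered with the lysis, and stranded libraries were built from polyadenylated RNA. The submitters' processing notes name HISAT, Cufflinks 2.0.0 and the genome build hg19. Both kinds of FPKM table used here, unnormalised and rescaled to the control RNA, are as deposited by the authors. The sources used here do not say how values were rescaled. Spike-in totals of the 5 libraries at 6 h and 0 h ran from 33801 to 34903 FPKM rescaled and from 29685 to 36240 unnormalised, and genes at 0 unnormalised stand at 0.0893 to 0.115 FPKM rescaled. FPKM give no read number, so depth is unknown. Columns were matched to groups by name, and their numbers only tell libraries apart.

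In limma 3.58.1 (R 4.3.3), the log2(rescaled FPKM + 1) of 11867 genes was modelled by time point over all 20 libraries, with moderated variances and an intensity trend. Tables and plots used Python 3.11.15, numpy 2.4.6, pandas 2.3.3 and matplotlib 3.10.9. On simulated data for 6 h minus 0 h (11867 genes), simulated log2 changes of 0.5, 1 and 2 were found in 11.9%, 80.6% and 100% of cases, with 0.069% false calls. The simulation drew each gene and library independently and held no shift shared across the genes of a library. The real libraries differed in such shifts between GC-rich and GC-poor genes, so the rate of false calls need not hold for them.

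Genes named were MYCN, the 12 largest rises and 12 largest falls among called genes whose libraries do not overlap between groups (352 rises and 854 falls were eligible; small and uncharacterised RNAs left out), and the members of each list with the lowest adjusted p, up to 4. Other list members are named to complete a count, and NCL, NPM1, ODC1, CDK4, CDKN1A and ATF4 as known genes of their lists. These, and the genes in the time course, were chosen after their values were seen. The members and the 33 gene lists were chosen with earlier results of these data known. The list of 7 mitochondrially encoded RNAs was not analysed here. Some members of the lists are counted but not reported by name. Alternatives were the unnormalised table, centring, a pseudocount of 0.1, no filter, 0 h and 6 h alone, no trend, a replicate block, leaving out libraries, and the length and GC correction, which used GENCODE v29 transcripts matched to 97.4% of tested genes.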

Additional observations from a re-analysis of the deposited data

How the results depend on the processing

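Of the results for 6 h against 0 h, the numbers of genes higher and lower moved most. They were 3186 and 3538 on the unnormalised table, 3217 and 2864 with median centring, 201 and 547 with the replicate block, and 77 and 431 with the length and GC correction. With the 0 h and 6 h libraries alone 2216 genes were lower. Leaving out 1 library gave 8 to 493 higher and 36 to 611 lower. On unnormalised values the counts were 3085 and 3389, 3176 and 3584, and 2425 and 2902 without the 6 h library numbered 0, 1 or 2, and 2985 and 3334, and 1425 and 2231, without the 0 h library numbered 1 or 2. The pseudocount, the intensity trend and the filter left both counts within 1.5 times. Against 4 h, 625 were higher and 1224 lower unnormalised, and 648 and 626 with centring. At 8 h against 6 h the counts were 297 and 165 unnormalised, and 165 and 85 with centring. Leaving out 1 library at 6 h gave 0 to 1 higher and 0 lower against 4 h, and 0 higher and 0 to 1 lower at 8 h against 6 h. The median log2 fold change was 0.0133 after median centring, which sets it near 0 by construction, and ran from -0.22 to -0.06 when 1 library was left out.

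Deviations from the group mean of same-numbered libraries of 6 h and 0 h had correlations of -0.13 and -0.24 for numbers 1 and 2. The 2 libraries at 0 h have mirrored deviations by construction, so these values cannot decide whether the numbers pair libraries. The main fit does not pair them. With the block 69 of the 84 named genes passed and 15 did not. All 84 passed unnormalised, with centring and with the smaller pseudocount. With the length and GC correction 53 passed, and 34 of 366 rises and 352 of 883 falls with a matched transcript passed among all genes. In every fit that left out 1 library 22 named genes passed, and 23 passed without the 0 h library numbered 2. No setting turned the direction of a named gene. The causes were not tested. Without a read number, the precision of weakly expressed genes is unknown.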

Other observations

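Further groups were put together after their values were seen, so their counts describe these libraries and carry no test. Over all tested genes 3.17% rose and 7.54% fell. Genes of plasminogen activation and matrix breakdown were lower in 8 of 13 tested members and higher in none. PLAUR, the urokinase receptor, was at 17.9, 17.2 and 14.1 FPKM at 6 h, against 31.9 and 37.8 FPKM at 0 h (-1.05). MMP3, stromelysin 1, was at 8.97, 8.57 and 7.96 FPKM at 6 h, against 20.1 and 23.7 FPKM at 0 h (-1.27). Urokinase itself (PLAU, -0.95), TGM2 (-1.33), BGN (-1.13), TIMP1 (-0.84) and MMP2 (-0.68) fell as well, and with the length and GC correction 6 members were lower. Among 14 targets of YAP and TEAD 7 fell and none rose. CDC42EP1, an effector of CDC42, was at 57.7, 60.2 and 47.5 FPKM at 6 h, against 131 and 159 FPKM at 0 h (-1.38).

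Carriers of nucleosides, folate and thiamine fell in 7 of 8 tested members. SLC19A1, the reduced folate carrier, was at 18.1, 19.6 and 15.4 FPKM at 6 h, against 39.2 and 49.9 FPKM at 0 h (-1.28). The nucleoside transporter SLC29A1 was at 34.3, 34.6 and 27.8 FPKM at 6 h, against 70.1 and 87.5 FPKM at 0 h (-1.26). With the length and GC correction 7 members were lower as well. Of 16 nuclear genes of mitochondrial gene expression 7 fell, among them MARS2 (-1.16), the mitochondrial methionyl-tRNA synthetase, PPRC1 (-1.15) and POLRMT (-0.96), the mitochondrial RNA polymerase. TERT, the catalytic subunit of telomerase, was at 2.17, 2.32 and 1.77 FPKM at 6 h, against 5.13 and 5.75 FPKM at 0 h (-1.06), the only 1 of 6 telomerase genes that fell. All 8 genes and pseudogenes of the FAM86 family fell, but they are near-identical copies whose reads may be shared, so they may be fewer than 8 observations. Without the 0 h library numbered 2, 2 members of the matrix group and 1 of the mitochondrial group were lower, and none of the YAP, carrier, telomerase and FAM86 groups was called.

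Of 22 cohesin and condensin genes 10 rose and none fell. SMC3 was at 26.6, 21.5 and 37.6 FPKM at 6 h, against 17.0 and 13.4 FPKM at 0 h (0.84), and RAD21 was at 65.5, 63.7 and 80.4 FPKM at 6 h, against 42.2 and 37.4 FPKM at 0 h (0.79). The 6 h library numbered 2 was the highest in both. None of the 10 passed with the length and GC correction, nor without the 0 h library numbered 1, the 0 h library numbered 2 or the 6 h library numbered 2. In the longest quartile of transcripts 248 genes rose and 212 fell, and in the shortest 13 rose and 161 fell. Small and uncharacterised RNA entries made up 24 of the rises and 40 of the falls, and some were at the level of unnormalised 0 in single libraries: MIR22 was at 56.7, 41.3 and 0.0935 FPKM at 6 h, against 0.0967 and 0.116 FPKM at 0 h.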
